A study of Homo sapiens with 6 samples.

Results

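Called peaks of histone lysine acetylation (Kac) and lysine benzoylation (Kbz) were examined at 10 genes of the SOX family of transcription factors, SOX2, SOX3, SOX4, SOX5, SOX6, SOX9, SOX11, SOX12, SOX13 and SOX17, out of 20033 protein-coding genes. The genes were chosen by name, and a peak was assigned to a gene when it overlapped the gene body (GENCODE 44, hg38) extended by 10 kb on each side, here called the window. The windows held 44 of 70326 control Kac peaks, 48 of 63282 SB Kac peaks and 20 of 24308 SB Kbz peaks.

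The study used HepG2, an established line from a human liver tumour, and its control groups received no sodium benzoate (SB), while its SB groups received 10 mM SB for 24 h. ChIP-seq, in which DNA bound to antibody-captured histones is sequenced, was run with pan antibodies that recognise acetyl-lysine or benzoyl-lysine on any histone site. Each of the 6 groups (input, Kac and Kbz, control or SB) held 1 library, and the 3 peak lists of control Kac, SB Kac and SB Kbz were analysed here. Per the labels no peaks were called in control Kbz, and the inputs were not analysed here. There was therefore no error between replicates and no test between groups, and the depth of each library is unknown, since a peak list carries no read totals. The intervals given are Wilson 95% intervals, which cover counting error only.

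SOX proteins bind DNA through an HMG box, a domain related to that of the testis-determining factor SRY, which enters the minor groove and bends the helix. They usually act together with partner factors and set the identity of stem, neural, cartilage and endodermal cells. By sequence they fall into groups, of which B1 (SOX2, SOX3), C (SOX4, SOX11, SOX12), D (SOX5, SOX6, SOX13), E (SOX9) and F (SOX17) are represented here. Acetylation of histone lysines is a mark of active promoters and enhancers, and benzoylation is an acylation of the same kind of residue, formed from benzoyl-CoA.

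The label of the cells was set against marker genes by counting those with a peak within 3 kb of an annotated transcription start site (TSS), which 76.5% of all protein-coding genes had in control Kac, 75.7% with SB Kac and 64.6% with Kbz. Of 15 genes of liver products, such a peak was found at 7 with control Kac, at 8 with SB Kac and at 2 with Kbz, and ALB, APOB, FGA and FGG had no peak of any list in their windows. Of 7 liver transcription factors the counts were 5, 5 and 3, and FOXA2 had no peak in its window. The same counts were 8, 8 and 7 of 9 embryonic kidney genes, 3, 4 and 3 of 8 neuronal genes and 3, 3 and 2 of 6 blood genes. With each antibody and treatment, the counts for liver products, liver transcription factors, neuronal genes and blood genes were below the shares of all genes. Those for the embryonic kidney genes, which include developmental regulators, were above them. These differences rest on few genes and were not tested. The part of this in the results below was not tested. The genes named were picked after their values were seen.

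At least 1 control Kac peak lay in the window of 8 of the 10 SOX genes (80.0%, interval 49.0 to 94.3), against 84.5% of all protein-coding genes. SB Kac peaks were found at the same 8 genes, against 83.1%, and SB Kbz peaks at 7 (70.0%, interval 39.7 to 89.2), against 75.2%. SOX11 and SOX17 had no peak of any list, and SOX3 had Kac but no Kbz. Promoter peaks, within 3 kb of any TSS of the gene, gave the same genes, 8 in either Kac list (76.5% of all genes in control Kac, 75.7% in SB Kac) and 7 for Kbz (64.6%). The shares of SOX genes were thus near those of all genes. For the 7 SOX genes shorter than 10 kb the counts were 5 in each Kac list and 4 for Kbz, against 70.5% (control Kac), 68.6% (SB Kac) and 59.6% (Kbz) of the 5132 protein-coding genes of that length.

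The genes differed more in where the peak lay than in whether there was one. The TSS of the canonical transcript was under a control Kac peak at 4 SOX genes (SOX2, SOX4, SOX5, SOX9), against 59.1% of all genes. Under SB Kac it lay at 6, the same 4 with SOX12 and SOX13, against 60.4%. Under Kbz it lay at SOX4 alone (10.0%, interval 1.79 to 40.4), against 45.8%. Among genes that had a Kbz peak at a promoter, the canonical TSS was covered in 1 of 7 SOX genes and in 70.8% of the 12944 genes. When any annotated TSS counted, Kbz covered one in 4 of 7 SOX genes (SOX4, SOX5, SOX6, SOX13) and in 81.8% of all genes with a promoter peak. At SOX2, SOX9 and SOX12 the Kbz peaks lay beside the only annotated TSS. With 7 genes these shares are imprecise, and no test was made of the difference.

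The 4 promoters shown here are examples and do not cover every combination of marks. The start of SOX4 lay under all 3 lists, and that of SOX12 was flanked by peaks and spanned by SB Kac. The start of SOX3 lay under no peak, and the outer start of SOX6 under the highest-ranked SB Kac peak of the 10 genes. This outer start, at 16738477, is the RefSeq one and not the outermost GENCODE TSS, at 16739591. The bases printed before it include the start of C11orf58 on the opposite strand, at 16738647, so this promoter cannot be assigned to SOX6 alone. The promoters of SOX4 and outer SOX6 touched the same lists. That of SOX2, which touched both Kac lists but not Kbz, is not shown. The sequences are the 250 bases before the start in the RefSeq promoter table (GRCh38.p14). They are written 5′ to 3′ on the strand of the gene, with CpG dinucleotides in capitals.
SOX4 (chr6:21593501-21593750, plus strand): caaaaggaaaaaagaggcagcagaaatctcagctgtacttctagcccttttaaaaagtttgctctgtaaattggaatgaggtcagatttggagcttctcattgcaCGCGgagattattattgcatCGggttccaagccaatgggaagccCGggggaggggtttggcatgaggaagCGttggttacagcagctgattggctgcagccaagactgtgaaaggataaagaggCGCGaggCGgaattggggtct
SOX12 (chr20:325302-325551, plus strand): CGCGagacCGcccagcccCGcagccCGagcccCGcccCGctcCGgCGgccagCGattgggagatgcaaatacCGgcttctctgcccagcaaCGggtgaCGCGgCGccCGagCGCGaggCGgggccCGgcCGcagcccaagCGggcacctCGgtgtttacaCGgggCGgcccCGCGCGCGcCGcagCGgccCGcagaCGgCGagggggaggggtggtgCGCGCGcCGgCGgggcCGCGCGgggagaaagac
SOX3 (chrX:140505070-140505319, minus strand): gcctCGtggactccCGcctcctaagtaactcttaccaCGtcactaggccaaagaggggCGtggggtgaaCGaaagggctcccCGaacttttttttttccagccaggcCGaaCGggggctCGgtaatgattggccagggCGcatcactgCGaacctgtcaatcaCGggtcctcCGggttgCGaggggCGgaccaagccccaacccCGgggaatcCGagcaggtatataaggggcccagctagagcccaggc
SOX6 (chr11:16738478-16738727, minus strand): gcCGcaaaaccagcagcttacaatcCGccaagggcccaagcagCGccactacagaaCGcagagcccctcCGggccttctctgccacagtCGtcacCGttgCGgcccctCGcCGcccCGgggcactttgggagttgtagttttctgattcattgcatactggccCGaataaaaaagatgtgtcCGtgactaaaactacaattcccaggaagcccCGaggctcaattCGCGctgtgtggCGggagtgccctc

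With the 50 bases after the start included, as in the table, the observed-over-expected CpG ratio was 0.485 for SOX4, 1.12 for SOX12, 0.733 for SOX3 and 0.818 for the outer SOX6 start, against a median of 0.579 over 35116 promoters. The SOX12 promoter had a GC content of 80.3%, at percentile 97.9 of all promoters, and no called Kbz peak touched it. The promoters of SOX4 and outer SOX6 touched peaks of all 3 lists, with CpG ratios on either side of that median. Over all promoters the median ratio was 0.8 with and 0.278 without a control Kac peak. It was 0.811 and 0.268 for SB Kac, and 0.836 and 0.302 for Kbz. In all, 7 SOX genes had 11 promoters in the table. Of these, 3 touched a peak of every list (SOX4, SOX5 and outer SOX6), 3 touched some (SOX2 and, in SB Kac alone, SOX12 and SOX13) and 5 touched none (SOX3 and 4 inner promoters of SOX6), while 37.1% of all promoters touched every list and 45.8% none. By list, 4 of the 11 touched control Kac, 6 SB Kac and 3 Kbz, against 50.4%, 50.2% and 37.8% of all promoters. The family's own binding motifs, searched as ACAAAG and ACAATG on both strands, were in 4 of the 11 promoters, those of SOX2 and SOX5 and 2 of the inner SOX6 promoters. One motif or the other was in 24.5% of all promoters, ACAAAG in 16.1% and ACAATG in 10.8%. A match describes the letters of the window and is not a binding site.

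SOX2, which maintains pluripotent and neural progenitor cells, is an intronless gene of 2512 bp at chr3:181711925-181714436 on the plus strand, inside the non-coding gene SOX2-OT. Positions are given in bp from the TSS, negative upstream. A control Kac peak of 7745 bp ran from −2253 to 5491 and an SB Kac peak of 8188 bp from −2221 to 5966. Both covered the whole gene and were longer than 98% and 98.4% of the peaks of their lists. The fold of a peak, the authors' ratio of its read density over the background, is given here by its percentile within the own list, the percent of peaks at or below it. The control Kac peak stood at percentile 72.8 (fold 3.74, −log10 q 4.41) and the SB Kac peak at 83.8 (fold 4.44, −log10 q 7.15). The 2 lists shared 93.6% of the SOX2 window bases that either of them covered, including a short peak of 357 bp in control Kac, from −10033 to −9677 (percentile 66.6), and 408 bp in SB Kac, from −10042 to −9635 (percentile 58.8).

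Kbz at SOX2 was much narrower. A peak of 520 bp, from 914 to 1433, covered 473 bp of coding sequence and 47 bp of the 3′ untranslated region and stood at percentile 40.6. A peak of 578 bp lay past the gene, from 3623 to 4200, at percentile 11.8 (−log10 q 1.71). Neither reached the TSS, and both were inside the long Kac peaks. Kbz covered 4.88% of the SOX2 window, control Kac 35.8% and SB Kac 38.0%. Since SOX2-OT runs through the gene, the marks cannot be assigned to SOX2 alone.

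SOX3, the other B1 gene, acts in neural progenitors and the developing pituitary and lies on the X chromosome (chrX:140502985-140505069, minus strand). It had 1 control Kac peak of 1759 bp, from −2300 to −542, at percentile 65.3, and 1 SB Kac peak of 965 bp, from −1620 to −656, at percentile 37.3. The SB peak lay wholly inside the control peak, which made the shared part 54.9% of the bases covered by either. The gene body and the TSS carried no peak, and the nearest Kbz peak was 204458 bp upstream. SOX3 thus differed from SOX2 both in the place of Kac and in having no Kbz peak called.

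**Figure D1:**
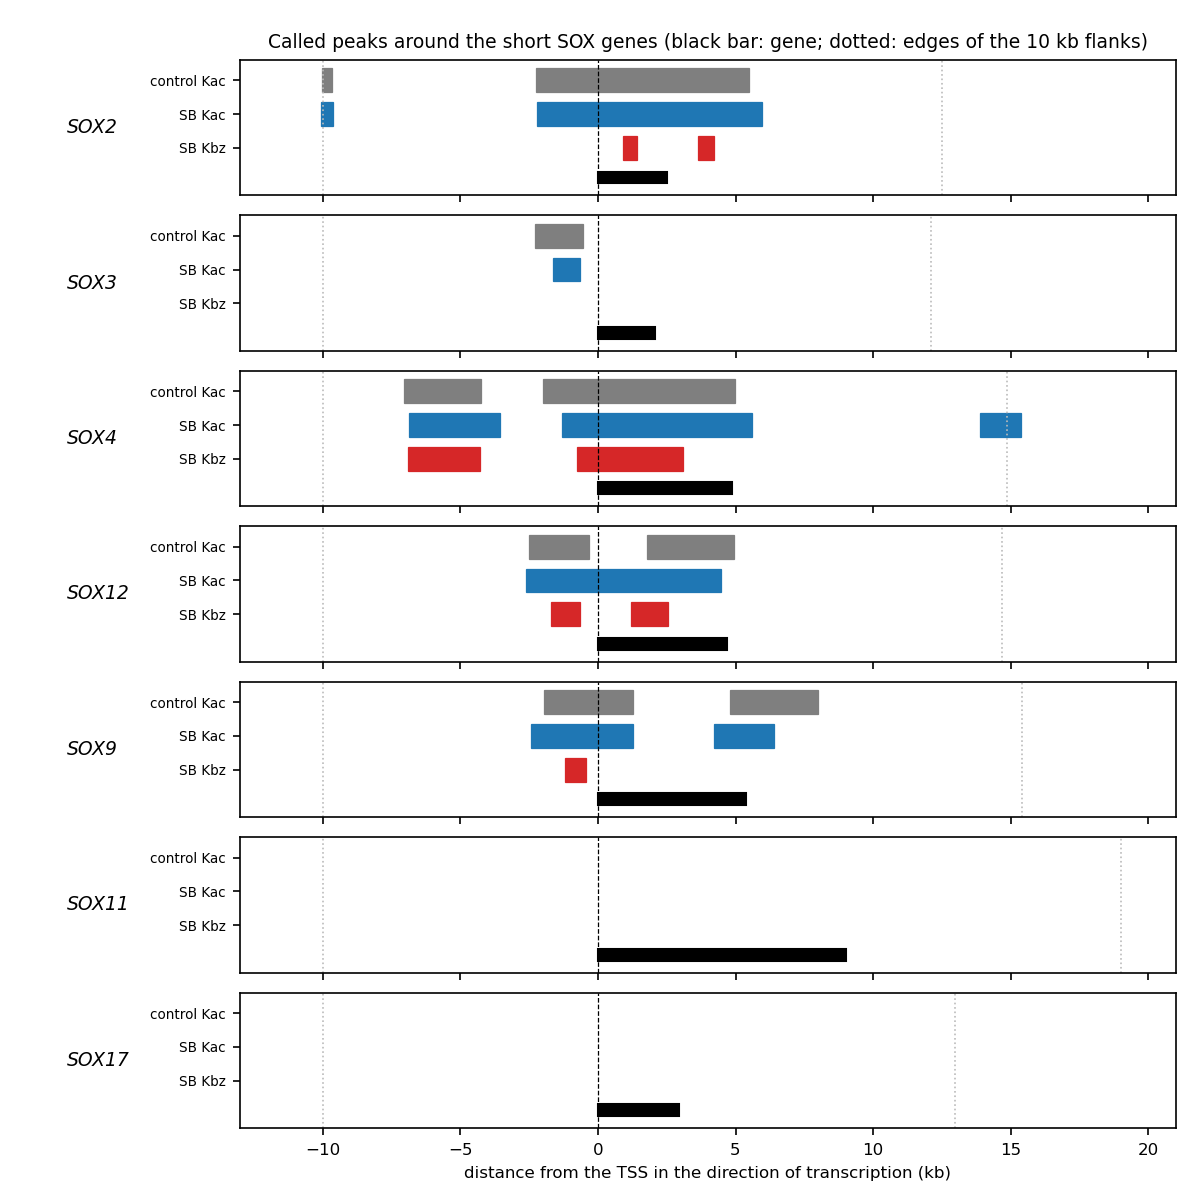
Called peaks of control Kac (grey), SB Kac (blue) and SB Kbz (red) around the 7 SOX genes under 10 kb, as distance in kb from the canonical TSS (dashed line) in the direction of transcription, with the gene as a black bar and dotted lines at the window edges. Kac covered the whole of SOX2, Kbz reached the TSS at SOX4 only, the Kbz peaks of SOX12 flanked its TSS, and SOX11 and SOX17 had no peak.

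Among the group C genes, which act in neural and other progenitors, SOX4 had the broadest marks. SOX4 (chr6:21593751-21598619, plus strand) also has no intron. Control Kac gave a peak of 2790 bp upstream, from −7034 to −4245 (chr6:21586717-21589506), at percentile 98.5 (fold 6.06, −log10 q 12), and one of 7000 bp over the gene, from −2003 to 4996, at percentile 65.8. SB Kac gave the same pair, of 3303 bp at percentile 98.4 (fold 6.91, −log10 q 16.4) and of 6915 bp, from −1307 to 5607, at percentile 87.9. The upstream peak ranked above the peak over the gene in both Kac lists. A further SB Kac peak of 1479 bp began at 13879, at percentile 61.0, with no control Kac peak within 5598 bp.

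Kbz followed both sites at SOX4. The upstream Kbz peak of 2609 bp ran from −6892 to −4284 at percentile 57.9 (fold 4.20, −log10 q 5.07), and the peak over the gene, of 3836 bp from −762 to 3073, stood at percentile 44.5 (fold 3.75, −log10 q 3.81). The latter covered the TSS, the whole coding sequence of 1422 bp and 868 bp of the 3′ untranslated region. It was longer than 97.6% of Kbz peaks although its fold was below the list median. Kbz covered 25.9% of the SOX4 window, which put SOX4 at percentile 98.6 of protein-coding genes, and 57.3% of the bases under SB Kac. None of the other 9 genes described here had more than 9.85% of its window under Kbz. A non-coding gene on the other strand starts at 1842, inside SOX4, under the peak over the gene in every list. The marks over the gene can therefore not be assigned to SOX4 alone.

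SOX12 (chr20:325552-330224, plus strand), expressed widely in the embryo, had 2 control Kac peaks with a gap at the TSS, of 2161 bp from −2491 to −331 at percentile 55.2 and of 3170 bp from 1771 to 4940 at percentile 90.5 (fold 4.71, −log10 q 8.61). In SB Kac there was 1 peak of 7106 bp, from −2624 to 4481, at percentile 80.3 (fold 4.17, −log10 q 6.89), and it spanned the gap. Whether the signal in the gap differed cannot be told from the peak lists, which carry no read coverage. Kbz kept the gap, with peaks of 1058 bp from −1695 to −638 at percentile 30.2 and of 1372 bp from 1188 to 2559 at percentile 49.7. The unmarked stretch of both lists includes the CpG-dense promoter. NRSN2-AS1 overlaps the gene on the other strand, so the downstream peaks cannot be assigned to SOX12 alone.

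SOX11, the neural member of group C (chr2:5692384-5701385, plus strand), had no peak in its window, also when the window was extended to 50 kb. The nearest control Kac peak lay 170471 bp upstream, and the nearest SB Kac and Kbz peaks 1215560 and 1215561 bp downstream. No peak being called says that enrichment was not detected, not that the marks were absent.

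The group D genes work with SOX9 in cartilage (SOX5, SOX6) and in other lineages such as red blood cells (SOX6) and T cells (SOX13). They have several annotated TSSs and long introns, and their windows made up 91.8% of the bases in all 10 windows. Together they held 35 of the 44 control Kac peaks, 39 of the 48 SB Kac peaks and 13 of the 20 Kbz peaks. The peak numbers of the family are therefore mostly those of these 3 genes.

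SOX5 (chr12:23529504-24562544, minus strand) spans 1033041 bp and has 20 TSSs, of which 11 lay under peaks of either Kac list and 5 under Kbz. The 5 under Kbz form the outermost cluster. There a control Kac peak of 3754 bp stood at percentile 84.4, an SB Kac peak of 6511 bp at 84 and a Kbz peak of 1538 bp, from −85 to 1452 counted from the outermost TSS, at 55.3 (fold 4.11, −log10 q 4.86). The 6 TSSs of the canonical cluster, inside the gene, lay under a control Kac peak of 2521 bp (percentile 60.5) and an SB Kac peak of 2577 bp (percentile 64.0) and had no Kbz peak. Kbz thus marked 1 of the 2 acetylated start clusters of SOX5.

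The other control Kac promoter peaks of SOX5 were 1 of 280 bp upstream of the outer cluster (percentile 63.2), which in SB Kac was part of the long promoter peak, and 1 of 834 bp near an inner TSS (percentile 19.6), which had no SB Kac counterpart. A run of Kac peaks lay between start clusters, from 471678 to 496791 bp past the outermost TSS. In control Kac it had 4 peaks, 2 of them of 6661 and 8063 bp, and in SB Kac 3 peaks, of 7345, 6491 (percentile 72.6) and 8129 bp. The highest-ranked peaks outside promoters were a control Kac peak of 1001 bp in this run (percentile 79.3), and, 22932 bp past the outermost TSS, a control Kac peak of 3408 bp (percentile 66.1) whose SB Kac counterpart of 4882 bp stood at 81.5. Kbz had a peak of 880 bp at the latter site (percentile 3.42) and one of 363 bp in the run (percentile 14.4). These Kbz peaks, inside the gene but upstream of its canonical transcript, were near the bottom of their list. All in all the 16 control Kac peaks of SOX5 ranged from percentile 4.09 to 84.4 and the 12 SB Kac peaks from 4.5 to 84.

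SOX6 (chr11:15966449-16739591, minus strand) spans 773143 bp with 17 TSSs, of which control Kac peaks covered 5, SB Kac peaks 6 and Kbz peaks 3. Its outer promoter had the highest-ranked SB Kac and Kbz peaks among the SOX genes. Control Kac gave a peak of 2075 bp there at percentile 97.9 (fold 5.81, −log10 q 12.2), SB Kac one of 2815 bp at 99.6 (fold 7.97, −log10 q 24.7) and Kbz one of 1973 bp at 86.3 (fold 5.76, −log10 q 11.2). C11orf58, a protein-coding gene on the opposite strand, starts at 16738647, next to a SOX6 TSS at 16738643, so the marks of the 2 genes cannot be told apart at this site. The canonical TSS of SOX6 lay under no peak.

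Further into SOX6, a promoter with 2 TSSs carried all 3 marks, with a control Kac peak of 5139 bp (percentile 83.7), an SB Kac peak of 5194 bp (84.2) and a Kbz peak of 3877 bp (25.6). A site outside any promoter ranked higher: its Kbz peak of 1061 bp began 125139 bp past the outermost TSS and stood at 77.2, with control Kac at 93.6 and SB Kac at 97.8. An intronic site had peaks at percentiles 94.1 (control Kac) and 96.1 (SB Kac), with a Kbz peak that began 445688 bp past the outermost TSS at 26.6. The 3′ untranslated region held a control Kac peak of 1495 bp at percentile 93.6, whose SB Kac counterpart stood at 74.7, with no Kbz. In SB Kac the 5 highest-ranked peaks of SOX6, from percentile 81.3 to 99.6, all overlapped Kbz. The remaining promoter peaks stood at percentiles 39.4, 74.7 and 38.1 in control Kac, 29.2, 70.2 and 67.6 in SB Kac and 11.3 in Kbz. Over the whole gene the 12 control Kac peaks ranged from percentile 11 to 97.9, the 17 of SB Kac from 0.988 to 99.6 and the 7 of Kbz from 11.3 to 86.3.

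SOX13 (chr1:204073115-204127743, plus strand) is 54629 bp long with 9 TSSs, of which control Kac peaks covered 2, SB Kac peaks 7 and Kbz peaks 1. Its control Kac peak of 11474 bp was longer than 99.4% of that list and began 602 bp downstream of the TSS (percentile 78.1). The SB Kac peak of 9590 bp began at −9 and covered the TSS (percentile 81.1). As at SOX12, a called SB Kac peak reached over a start site that the called control Kac peaks left free. Here too the peak lists cannot tell whether the signal at the start differed. Kbz gave a peak of 1124 bp from 600 to 1723 at percentile 59.6 and one of 1480 bp from 5291 to 6770 at 51, both inside the SB Kac peak. A non-coding gene on the other strand starts at 850, under the long peak of either Kac list and the first Kbz peak. The marks near the start can therefore not be assigned to SOX13 alone.

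Over the 3′ end of SOX13 both Kac lists had another long peak, of 5175 bp in control Kac (percentile 64.2) and 6279 bp in SB Kac (percentile 61.1). Another non-coding gene, on the same strand, starts past the end of SOX13 under both of these peaks. SB Kac had small promoter peaks at 2 inner TSSs, of 1146 bp (percentile 3.23) and 493 bp (percentile 22.4), with no control Kac peak. The other SB Kac peaks stood between percentiles 1.5 and 59.1, and the other control Kac peaks between 5.17 and 39.6. SOX13 had Kac over 30.3% of its window in control and 33.3% after SB, whereas SOX5 and SOX6 had between 3.30% and 4.33%.

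**Figure D2:**
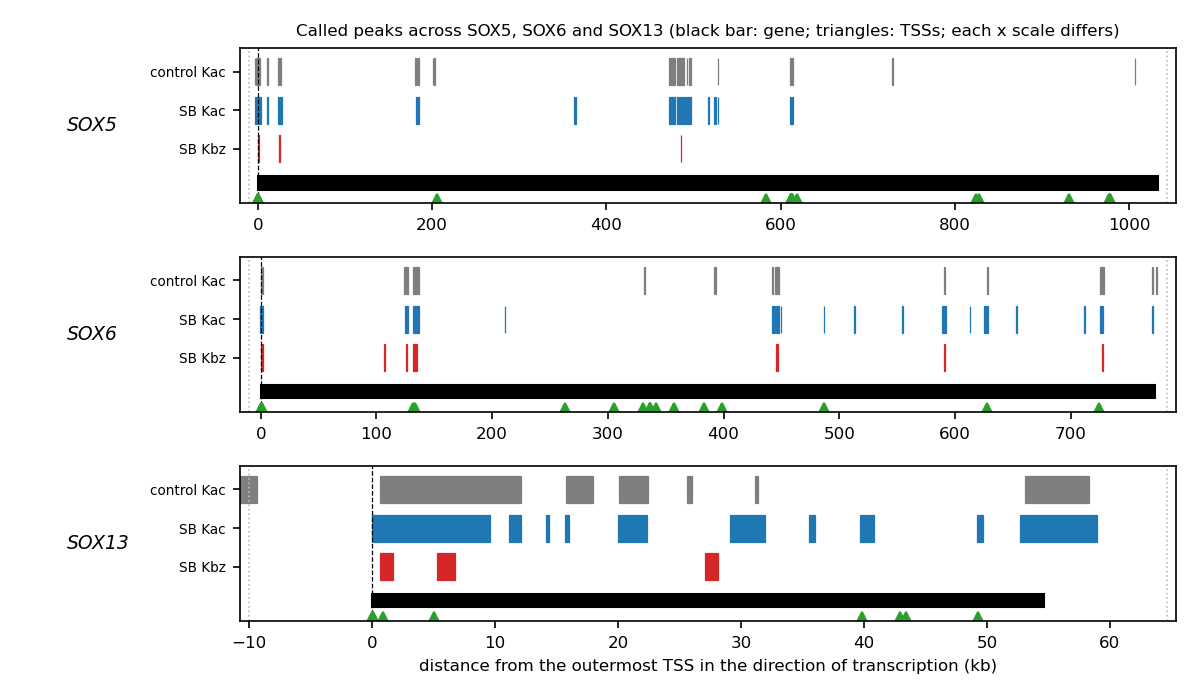
Called peaks of control Kac (grey), SB Kac (blue) and SB Kbz (red) across SOX5, SOX6 and SOX13, as distance in kb from the outermost TSS in the direction of transcription, each gene on its own scale, with annotated TSSs as green triangles and window edges as dotted lines. Kbz peaks were few (3, 7 and 3) and lay mostly at sites with Kac, and many inner TSSs had no peak.

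SOX9, the group E gene that directs cartilage formation and testis development (chr17:72121020-72126416, plus strand), had Kac at both ends. The TSS lay under a control Kac peak of 3226 bp, from −1947 to 1278, at percentile 87.4 (fold 4.48, −log10 q 7.02), and an SB Kac peak of 3720 bp, from −2446 to 1273, at 87.8 (fold 4.83, −log10 q 8.76). These were close in place and rank. The downstream peak, over the 3′ untranslated region and beyond, was 3173 bp long in control Kac (percentile 66.4) and 2178 bp in SB Kac (percentile 50.6). A Kbz peak of 735 bp lay upstream, from −1178 to −444, at percentile 77 (fold 5.09, −log10 q 7.70), the highest Kbz rank after 2 SOX6 peaks. SOX9-AS1, a non-coding gene on the other strand, starts between this Kbz peak and SOX9, under both Kac peaks, so the upstream marks cannot be assigned to SOX9 alone.

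SOX17, the group F gene of endoderm and blood vessels (plus strand, 2958 bp long), had no peak in its window, and none with the window extended to 50 kb. The nearest peaks were upstream, 74277 bp away for control Kac, 56616 bp for SB Kac, 74759 bp for Kbz. SOX17 and SOX11 belonged with the 21.2% of protein-coding genes that had no promoter peak in any list. The state of SOX3, Kac in both lists without Kbz, was that of 9.38%, and the state of the other 7 SOX genes, a promoter peak in all 3 lists, that of 64.1%.

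The share of the window under peaks put the genes in order. In control Kac it was highest for SOX4 (39.4%), followed by SOX2 (35.8%), SOX13 (30.3%), SOX9 (25.2%) and SOX12 (21.6%), and then, well apart, by SOX3 (7.96%), SOX5 (3.37%) and SOX6 (3.30%). Over all protein-coding genes the medians were 7.02% (control Kac), 6.88% (SB Kac) and 2.37% (Kbz). The 5 genes in the lead thus stood between percentiles 82.2 and 95 of all genes in control Kac. Windows of short genes are mostly flank, and for the 5132 genes under 10 kb the control Kac median was 11.3% and the upper quartile 26.2%, with SOX2 and SOX4 above that quartile and SOX9 and SOX12 below it. SB Kac covered more of the window than control Kac at SOX2, SOX4, SOX5, SOX6, SOX12 and SOX13, 6 of the 8 SOX genes with both, and less at SOX3 and SOX9. SB Kac covered more at 47.9% of the 16382 protein-coding genes with both marks. Over all 10 windows control Kac covered 5.52%, SB Kac 6.41% and Kbz 1.31%.

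**Figure D3:**
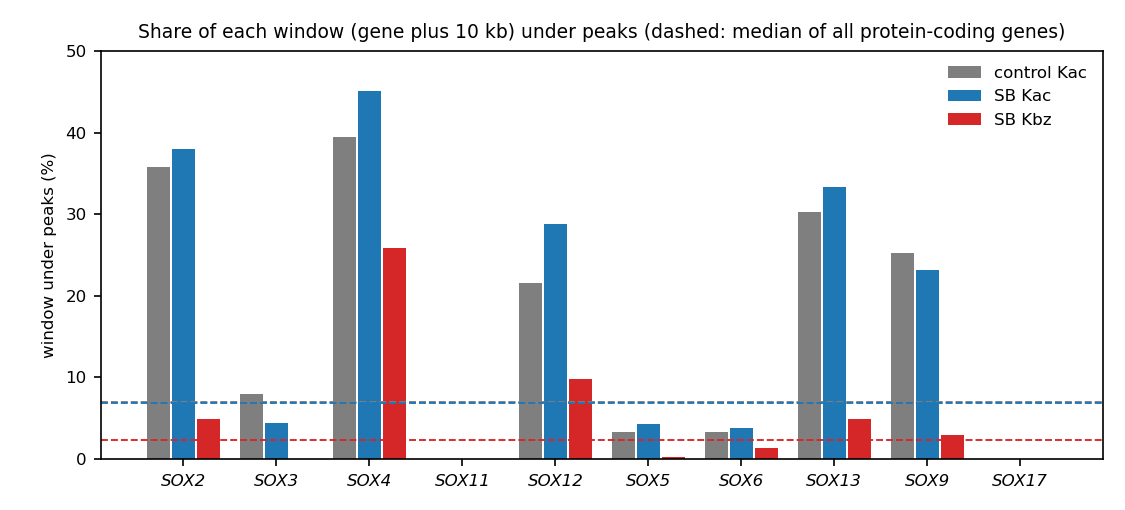
Percent of each window (gene plus 10 kb on each side) under peaks of control Kac (grey), SB Kac (blue) and SB Kbz (red) for the 10 SOX genes, with dashed lines at the medians of all protein-coding genes (7.02%, 6.88% and 2.37%). SOX4 had the most Kbz (25.9%), and SOX11 and SOX17 had none of the 3 marks.

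To compare acetylation with and without SB, peaks of one Kac list that overlapped no peak of the other by 1 bp were counted. Of the 44 control Kac peaks, 10 had no SB Kac peak (22.7%, interval 12.8 to 37.0), against 35.3% of all control Kac peaks. Of the 48 SB Kac peaks, 16 had no control Kac peak (33.3%, interval 21.7 to 47.5), against 27.5% of all. All 10 of the former and 15 of the latter belonged to SOX5 (5 and 3), SOX6 (3 and 8) and SOX13 (2 and 4), and the last was the downstream peak of SOX4. At the short genes every control Kac peak had an SB Kac counterpart. Peaks of 1 list were short and low in rank: their median length was 926.5 bp in control Kac and 549 bp in SB Kac, against 2551.5 and 2898.5 bp for shared peaks. Their median fold stood at percentiles 21.3 and 31.1, against 65.5 and 68.9 for shared peaks, and in the whole lists at 28.3 and 25.7, against 64.5 and 62.4. None of the 26 overlapped a Kbz peak, against 1.55% of the 42190 such peaks in the whole lists.

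**Figure D4:**
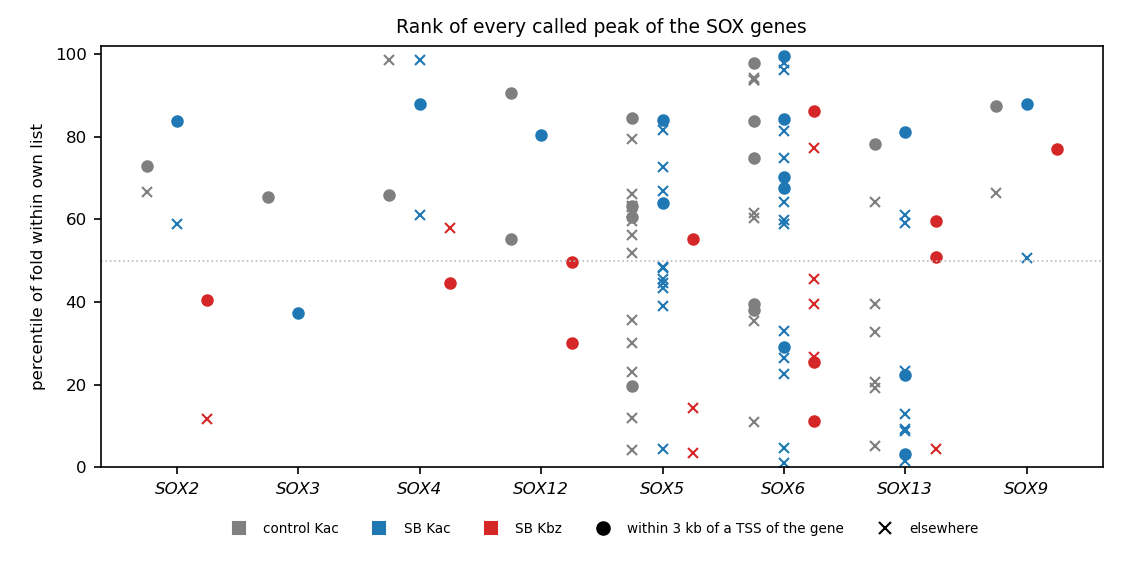
Percentile of the fold of each called peak within its own list, by SOX gene, for control Kac (grey), SB Kac (blue) and SB Kbz (red), with filled circles for peaks within 3 kb of a TSS of the gene and crosses for the others. The Kac peaks upstream of SOX4 (98.5 and 98.4) and at the outer SOX6 promoter (97.9 and 99.6) ranked highest, and the Kbz peaks ran from 3.42 to 86.3.

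To compare benzoylation with acetylation, Kbz peaks were overlapped with the Kac lists. At the SOX genes 18 of 20 Kbz peaks shared bases with SB Kac (90.0%, interval 69.9 to 97.2), against 93.7% of all Kbz peaks, and 16 of these lay wholly inside. In the other direction 15 of 48 SB Kac peaks overlapped Kbz (31.2%, interval 19.9 to 45.3), against 33.8% of all. Of the 20 Kbz peaks of SOX genes, 7 were above the list median of fold, and the median percentile of the 20 was 42.5. In Kac 29 of 44 control and 27 of 48 SB peaks were above the median of their own list, with median percentiles of 62.2 and 59.0. These differences were not tested. The Kbz share of the bases under SB Kac was 57.3% at SOX4, 34.2% at SOX12, 32.9% at SOX6, 12.8% at SOX2, 12.5% at SOX9, 10.5% at SOX13 and 6.10% at SOX5.

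Kbz peaks with no peak of either Kac list numbered 2, at SOX6 and SOX13 (10.0%, interval 2.79 to 30.1), against 4.85% of all Kbz peaks. The middle 200 bases of each are shown on the plus strand of hg38, with CpG dinucleotides in capitals. They are shown because no Kac peak was called there, which does not say that Kac was absent. Both lie inside their gene, the SOX13 peak in an intron of the canonical transcript and the SOX6 peak upstream of that transcript. Exons of other transcripts were not examined.
SOX6 Kbz peak (chr11:16632509-16632708): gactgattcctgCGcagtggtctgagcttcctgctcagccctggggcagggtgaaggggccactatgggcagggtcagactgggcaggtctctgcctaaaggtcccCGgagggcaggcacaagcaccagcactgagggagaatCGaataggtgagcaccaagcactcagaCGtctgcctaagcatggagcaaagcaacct
SOX13 Kbz peak (chr1:204100619-204100818): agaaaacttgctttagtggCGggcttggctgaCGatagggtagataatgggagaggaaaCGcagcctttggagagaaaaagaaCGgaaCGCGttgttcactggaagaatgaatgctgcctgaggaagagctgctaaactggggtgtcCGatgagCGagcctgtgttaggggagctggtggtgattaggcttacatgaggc

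The SOX6 peak was 336 bp long, at percentile 45.6 (fold 3.79, −log10 q 4.28), and 17634 bp from the nearest SB Kac peak. Its middle had a CpG ratio of 0.224. The SOX13 peak was 1030 bp long, at percentile 4.35 (fold 2.75, −log10 q 1.57), and lay between Kac peaks, 1039 bp from control Kac and 981 bp from SB Kac. It was thus a weak call beside acetylated sequence, below the −log10 q of 2 of the stated FDR. Its middle had a CpG ratio of 0.731, but the whole peak had 0.254. Over the whole SOX6 peak the ratio was 0.219, and the median of all Kbz peaks with no Kac peak was 0.175.

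Base composition differed between peaks at promoters and the others, with overlapping ranges. Within 3 kb of a TSS of the gene the 16 control Kac peaks had a median CpG ratio of 0.508, the 15 SB Kac peaks 0.578 and the 11 Kbz peaks 0.678. Elsewhere it was 0.229, 0.222 and 0.255 (28, 33 and 9 peaks). The median over all Kbz peaks of SOX genes was 0.625, against 0.473 in the whole Kbz list. In control Kac it was 0.253 against 0.238, and in SB Kac 0.241 against 0.252. The share of SOX peaks at promoters was 36.4% (control Kac), 31.2% (SB Kac) and 55% (Kbz). The same share over all peaks of each list was not computed, so whether these values are particular to the SOX genes is not known. Their part in the medians was not tested.

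**Figure D5:**
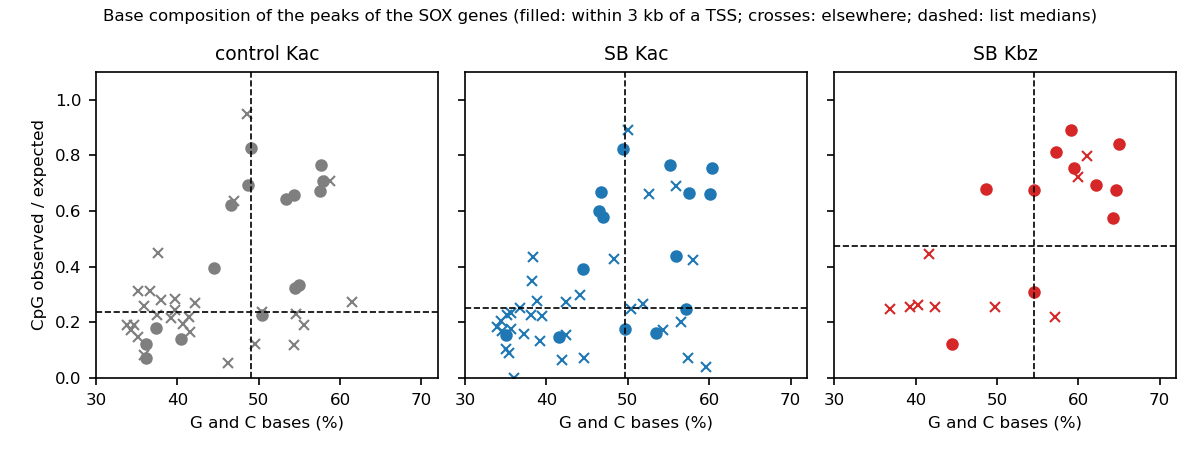
GC content (percent) and observed-over-expected CpG ratio of each peak of the SOX genes, 1 panel per list, with filled circles for peaks within 3 kb of a TSS of the gene, crosses for the others and dashed lines at the medians of the whole list. Most Kbz promoter peaks sat above the median CpG ratio of the Kbz list (0.473), while Kac peaks away from promoters mostly lay low.

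Genes that work with SOX proteins were counted in the same way. All 5 partner factors (POU5F1, POU3F2, POU3F3, PAX6 and CTNNB1) had a promoter peak in control Kac and SB Kac, against 76.5% and 75.7% of all genes, and 4 in Kbz, against 64.6%. PAX6, a partner of SOX2 in the lens and neural tube, ranked highest, with its best promoter peak at percentiles 93.4, 97.4 and 79.6 in control Kac, SB Kac and Kbz. POU5F1, the partner of SOX2 in pluripotent cells, was the one without Kbz at the promoter. Of 10 known SOX targets, 7 had a promoter peak in each Kac list and 4 a Kbz peak there. COL2A1, the cartilage collagen activated by SOX9 with SOX5 and SOX6, had its best promoter peak at percentiles 79.5, 93.5 and 71.9, and NES, a neural target of SOX2, at 93.2, 79.9 and 32.7. FGF4, UTF1 and DCX had no promoter peak in any list. The targets named were picked after their values were seen.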

How the data were processed

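Peak lists of 3 of the 6 ChIP-seq libraries were used. Per the study's methods and the submitters' processing notes, the authors sequenced single reads of 50 bp, aligned them to hg38 (Bowtie2 2.2.6), handled alignments and duplicates with SAMtools 0.1.19 and called peaks per library with MACS2 2.1.1 at a stated FDR of 0.01. The broad setting and the background track are not given in the sources used here. The deposited files list each peak with an integer display score (not used), a fold, which is a ratio over background, and −log10 p and −log10 q, all averaged over the peak. The highest q was 0.0487, 0.0494 and 0.0485 in control Kac, SB Kac and SB Kbz, so the lists reach beyond the stated FDR.

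Peaks on 24 chromosomes were kept, and 3 peaks of control Kac outside them were dropped. Genes came from GENCODE 44, with 1 canonical transcript per gene and all annotated TSSs for promoters. An overlap was at least 1 bp. Python 3.11.15, numpy 2.4.6, pandas 2.3.3, scipy 1.17.1 and matplotlib 3.10.9 were used. Overlaps were tested on simulated data, where 1000 of 1000 planted intervals were recovered and 0 of 1000 beside peaks were called, and 0 of 36 real counts differed from bedtools 2.31.1. The 35116 RefSeq promoters were identical to hg38.

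All 10 genes are described: every peak where a list gave a gene at most 6, otherwise the promoter peaks, the 3 of highest fold and counts or ranges of the rest. The genes and all lists were chosen with earlier results of these data known. With 1 library per group, no test was made.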

Additional observations from a re-analysis of the deposited data

How the results depend on the processing

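The 16 counts and shares over the 10 genes were recomputed under other settings, 112 values in all. Of these, 77 moved by at most 1.5 times (counts) or stayed within the 95% interval (shares), and 35 moved more. The interval of a share treats each base as a separate trial although neighbouring bases go together. It is therefore very narrow, and a share can leave it by a small shift. With −log10 q at or over 5 the windows kept 12 peaks of control Kac, 16 of SB Kac and 7 of Kbz, covering 2.08%, 3.68% and 0.495%, and 5 genes had a control Kac and 4 a Kbz promoter peak. There 2 control Kac peaks had no SB Kac peak, 6 SB Kac peaks no control Kac peak, 7 Kbz peaks had SB Kac and 6 SB Kac peaks had Kbz. With −log10 q at or over 2, the stated FDR, the covered shares were 5.30%, 6.09% and 1.18%, and 6 control Kac peaks had no SB Kac peak. With 15000 peaks per list the windows held 10, 14 and 10 peaks, covering 1.88%, 3.25% and 0.768%, and 5 genes had a control Kac promoter peak. There 0 control Kac peaks had no SB Kac peak, 4 SB Kac peaks no control Kac peak, 9 Kbz peaks had SB Kac and 8 SB Kac peaks had Kbz. These settings remove peaks by construction. With the gene body alone the covered shares were 4.70%, 5.62% and 1.14%. With 50 kb flanks there were 67 control Kac peaks, 18 of them without SB Kac, and SB Kac and Kbz covered 6.13% and 1.21%. When Kbz had to cover at least 50% of the peak, 4 SB Kac peaks had Kbz. With the canonical TSS alone, 7 genes had a promoter peak in each Kac list and 5 in Kbz. SOX6 then had none in any list, and SOX5 none in Kbz. Of the 35 values, 14 were shares and 21 counts. SOX11 and SOX17 had no peak under any of these settings. No paired analysis was possible because every group was 1 library, and no replicate could be left out for the same reason.

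The intervals cover counting error only. Depth is unknown, and its part in the number of peaks was not tested. A broad peak is a joined region, and its length and number depend on the caller.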

Other observations

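Of 9 other SOX genes, 6 carried control Kac at the promoter, 5 carried SB Kac and 2 carried Kbz, against 76.5%, 75.7% and 64.6% of all protein-coding genes. SOX21, a group B gene of neural progenitors, had its TSS under all 3 lists, with its best promoter peak at percentiles 72.8, 82.7 and 54.4 of fold in control Kac, SB Kac and Kbz and Kbz over 15.4% of its window. SOX18, a group F gene of blood and lymph vessels, had more of its window under control Kac (64.8%) and SB Kac (65.9%) than any of the 10 genes above, and promoter Kbz at percentile 33.7. SOX10, the group E gene of the neural crest, had control Kac over 17.8% and SB Kac over 5.99% of its window and no Kbz. SOX8 had a promoter peak in control Kac alone, at percentile 20.9. SOX1, a B1 gene, had peaks of all 3 lists in its window but none within 3 kb of its TSS. SOX30 had no peak, and SOX14 had a single SB Kac peak over 1.27% of its window. These genes were named after their values were seen.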
